A study of Mus musculus with 7 samples.

Results

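The genes of the major histocompatibility complex (MHC) and of antigen processing were read on the arrays by the names the array design gives its probes. Members were the probes whose gene name starts with H2-, the mouse prefix for this complex, or is B2m, Tap1, Tap2, Tapbp, Tapbpl, Psmb8, Psmb9, Psmb10, Psme1, Psme2, Nlrc5, Erap1, Cd74 or Ciita. This gave 55 names of 36406 on the array, read by 70 probes of 55681. By role, 29 names were class I chains with B2m, 11 served peptide supply and loading, 12 were class II, 2 were neighbours in the same chromosomal segment that encode no MHC chain, and 1 H2 name (H2-Gs10) stood apart.

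RNA came from satellite cells, the resident stem cells of skeletal muscle, of male C57BL/6 mice with no injury or treatment. Mice of the 4 geriatric arrays were 28, 28, 29 and 30 months old, and those of the 3 young arrays 2, 2 and 3 months old. Cells were sorted for integrin α7 and CD34 and against CD31, CD45, CD11b and Sca1, the marks of endothelium, leukocytes, myeloid cells and fibro-adipogenic progenitors. Their RNA was amplified by a method for very small cell populations before hybridisation with a single Cy3 dye, and the sources used here do not say whether a sample was 1 mouse or a pool. In the sample descriptions geriatric arrays 1 and 2 go by 1 name. Across tested probes they correlated at r = 0.992 and differed by a median of 0.0868 log2 units in size, against 0.914 to 0.954 and 0.345 to 0.452 for the other pairs. They were therefore averaged into 1 sample, and each group had n = 3 samples.

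A level below is log2 of the processed signal minus the 75th percentile of its array, which was 1330 to 1609 intensity units, so that 0 marks a spot at that percentile and each unit a doubling. A difference is geriatric minus young on this log2 scale, with its standard error (SE). Probe levels depend on the probe, so each gene was compared only with itself across arrays. On each array 38052 to 41293 of the 55681 probes were well above background. A gene was tested when one of its probes reached that state on 3 or more of the 7 arrays, and its brightest such probe stood for it. Of 27398 features tested with limma, 7 passed an adjusted p of 0.05, which is 0.0255%, and 1980 (7.23%) had an unadjusted p under 0.05. All 11 satellite cell markers (Pax7, Itga7, Cd34 and Vcam1 among them) were well above background on all 7 arrays, with a median difference of 0.05. In 1 of them, Itga7, all geriatric samples lay below the young ones, against 5.65% of all features. Its difference was -0.44 (SE 0.19, limma adjusted p = 0.703).

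MHC class I molecules are a heavy chain paired with β2-microglobulin (B2m), and nearly all nucleated cells carry them. Their peptides are cut in the cytosol by the proteasome, carried into the endoplasmic reticulum by the transporter Tap1 and Tap2, fitted by tapasin (Tapbp) and trimmed by Erap1. Interferon replaces 3 catalytic subunits of the proteasome by Psmb8, Psmb9 and Psmb10, and Nlrc5 drives transcription of class I genes. Class II molecules, made mainly by professional antigen-presenting cells, pair α and β chains on the invariant chain Cd74, load peptides with the help of H2-DM in endosomes and depend on the transactivator Ciita.

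The probes set what can be told apart, since class I genes arose by recent duplication. Of the 38 class I probes, 6 held a run of at least 20 bases found also in the probe of another member, against 0 of the 32 other member probes. Probes were compared with other probes alone and not with transcripts, so these counts do not show which genes a probe can read. Runs shared with probes outside the members are not in these counts. Such runs were held by probes of H2-K1, H2-T23, H2-Q2, H2-Q6, H2-T18 and Ciita, the last with 3 other probes. Of all probes of the array, 7.35% shared a run with a probe of any other name, a wider measure than the member counts. The probes of H2-K1, a classical class I chain, and H2-T23, the Qa-1 chain, are shown because the same 29 bases, in capitals, lie in both. On mm9 the H2-K1 probe lies at chr17:34133984-34134043 and the H2-T23 probe within chr17:36167338-36167574, both on the minus strand.
H2-K1: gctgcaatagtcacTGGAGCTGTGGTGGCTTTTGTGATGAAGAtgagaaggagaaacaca
H2-T23: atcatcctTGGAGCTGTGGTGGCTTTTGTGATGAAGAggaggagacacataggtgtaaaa
One probe of H2-K2 and the probe of H2-Q7 shared 28 bases, and the dimmer H2-Q10 probe and the H2-T3 probe shared 22 bases. These stretches are given alone.
H2-K2 and H2-Q7: tctcctgtgacatccagagccctcagtt
H2-Q10 and H2-T3: ttgtggaggaaataaatggcag
The probes of Psmb8 (chr17:34337771-34337830, plus strand) and Tap1 (chr17:34330854-34330913, plus strand) are shown as the readers of the proteasome subunit and the transporter chain with the largest differences of their kind. Neither shared a run of 20 bases with another member's probe.
Psmb8: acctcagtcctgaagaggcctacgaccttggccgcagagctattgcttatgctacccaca
Tap1: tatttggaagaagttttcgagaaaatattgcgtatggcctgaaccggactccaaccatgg
The Ciita probe (chr16:10526568-10526627, plus strand) carried a repeat, shown as 30 bases in which each of 5 AAAAC units is in capitals.
Ciita: AAAACAAAACAAAACgaaacAAAACAAAAC

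None of the 41 members tested passed the threshold with limma, where 0.0255% of all features did (0.0109% higher and 0.0146% lower in geriatric cells). An unadjusted p under 0.05 was found for 4 of the 41, against 7.23% of all features. In 7 of the 41 every geriatric sample lay above every young sample, against 7.18% of all features, and in 0 of them below, against 5.65%. One of the 7, H2-M10.4, was well above background on geriatric arrays alone and passed the filter through them, and without it the count was 6 of 40. The mean was higher in geriatric cells in 30 of the 41 and lower in 11, and 49.7% of all features had a higher geriatric mean. These counts overlap in what they measure where probes share sequence. The 2 rows of the slide held the groups unevenly: row 1 held young arrays 1 to 3 with geriatric array 1, and row 2 held geriatric arrays 2 to 4. Row and group were therefore partly confounded, and values within row 1, which set geriatric array 1 alone against the 3 young arrays, are given beside the results.

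Peptide supply and loading held the members whose geriatric samples most often stood above the young ones. All 11 genes were well above background on all 7 arrays. The mean was higher in geriatric cells in 9 and lower in 2, the median difference was 0.40, and the median over all tested features was -0.0024. In 4 of the 11 (Psmb8, Tap2, Nlrc5 and Psmb10) the geriatric samples all lay above the young ones, against 7.18% of all features. A higher geriatric mean was held by 49.7% of all features. The median of the list was 0.43 within row 1 and 0.21 without young replicate 3.

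Psmb8, the inducible chymotrypsin-like subunit of the immunoproteasome, read 2.35, 2.34, 1.96 and 1.80 on geriatric arrays 1 to 4, against 0.60, 1.79 and 0.47 on young arrays 1 to 3. The mean level was 2.03 ± 0.28 in geriatric cells and 0.96 ± 0.73 in young cells (SD, n = 3 each), a difference of 1.08 (SE 0.40, 2.11-fold, limma adjusted p = 0.645). The groups did not overlap, but young array 2 came within 0.01 of geriatric array 4. Psmb10, the inducible trypsin-like subunit, had levels of 2.85, 2.87, 2.82 and 2.68 on the geriatric arrays, against 2.57, 2.43 and 2.17 on the young arrays. The difference was small, 0.40 (SE 0.18, limma adjusted p = 0.711), with no overlap. Psmb9, the inducible caspase-like subunit, had levels of 0.10, 0.14, -0.46 and -1.13 on the geriatric arrays, against -1.11, -0.30 and -1.79 on the young arrays. Its groups overlapped, with geriatric array 4 below young arrays 1 and 2, and the difference was 0.57 (SE 0.49, limma adjusted p = 0.862). Psme1 and Psme2 encode the PA28 activator that caps the proteasome, and both differed by less than their spread. Psme1 averaged 2.59 ± 0.13 in geriatric cells and 2.61 ± 0.24 in young cells (SD, n = 3 each). Psme2 averaged 3.34 ± 0.23 in geriatric cells and 3.26 ± 0.32 in young cells (SD, n = 3 each), and its 2 other probes each differed by 0.25.

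Both chains of the peptide transporter had higher geriatric means. Tap1 read -1.43, -1.48, -0.64 and -2.42 on geriatric arrays 1 to 4, against -2.47, -2.36 and -2.84 on young arrays 1 to 3. Its difference was 1.05 (SE 0.46, 2.07-fold, limma adjusted p = 0.706), and geriatric array 4 alone fell among the young arrays. Without geriatric replicate 3 the difference was 0.62. Tap2 read 0.09, 0.17, 0.24 and -0.20 on the geriatric arrays, against -1.07, -0.35 and -0.38 on the young arrays. All 4 geriatric arrays lay above the young ones, with a difference of 0.66 (SE 0.26, 1.58-fold, limma adjusted p = 0.687). Tapbp, the tapasin that bridges the transporter and the class I chain, averaged 3.28 ± 0.26 in geriatric cells and 2.98 ± 0.30 in young cells (SD, n = 3 each). Its relative Tapbpl, the editor known as TAPBPR, read -2.61, -2.34, -0.47 and -1.44 on the geriatric arrays, against -1.30, -1.81 and -1.76 on the young arrays. Geriatric arrays 3 and 4 surrounded the highest young level and arrays 1 and 2 were the lowest of all, so that its mean difference of 0.16 became -0.99 within row 1. Erap1, which trims peptides inside the endoplasmic reticulum, averaged -2.44 ± 0.51 in geriatric cells and -2.10 ± 0.31 in young cells (SD, n = 3 each), the lowest difference of the group at -0.34 (SE 0.32).

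Nlrc5, the class I transactivator, was read by 2 probes that disagreed in size. The brighter one read -2.65, -2.46, -2.54 and -2.23 on geriatric arrays 1 to 4, against -2.72, -3.58 and -2.91 on young arrays 1 to 3, a difference of 0.63 (SE 0.27, limma adjusted p = 0.701) without overlap. The other probe read -1.90, -1.98, -0.70 and -3.34 on the geriatric arrays, against -4.13, -2.42 and -5.18 on the young arrays. Its difference was 1.91 (SE 0.93, limma adjusted p over all tested probes = 0.737), with geriatric array 4 below young array 2. The first probe had its lowest young level on array 2 and the second its highest, while both put young array 1 above young array 3.

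**Figure D1:**
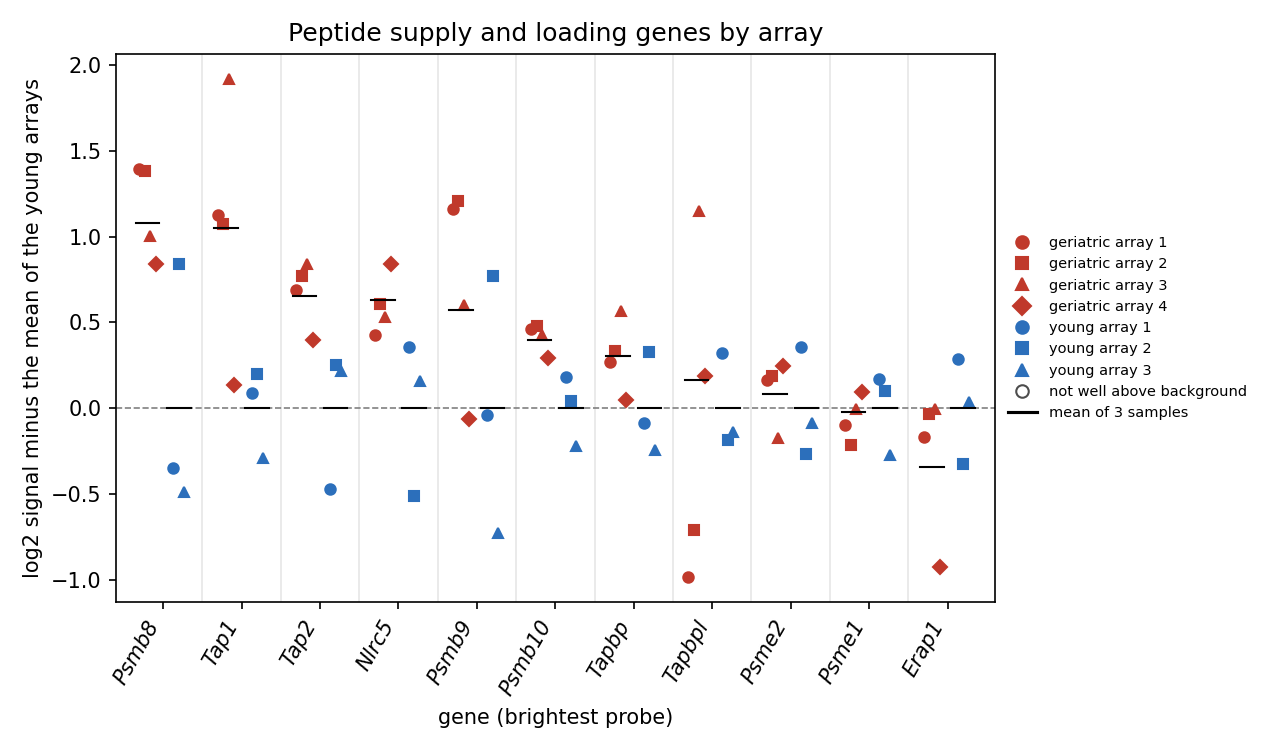
Log2 signal of the 11 peptide supply and loading genes on each array, minus the mean of that gene's young arrays (dashed line), with the 4 geriatric arrays left and the 3 young arrays right of each gene and bars at the means of 3 samples per group. Psmb8, Tap1, Tap2, Nlrc5 and Psmb10 have geriatric points mostly above 0, and the mean differences run from 1.08 for Psmb8 to -0.34 for Erap1.

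Promoter sequence was compared for these genes because several lie together and respond to the same cytokines. RefSeq windows on GRCm38.p6, of 250 bases before to 50 bases after the start of a gene, were held by 8 of the 11 peptide supply genes, 20 of the 29 class I genes and 8 of the 12 class II genes. They were searched on both strands for 4 motifs. The core of an interferon-stimulated response element was GAAA, any 2 bases and GAAA, the site of activated STAT factors was TTC, any 3 bases and GAA, a kB site was GGG, any 2 bases, TT, any 1 base and CC, and the last was CCAAT. A match of one can overlap a match of another. The response element core was found in 2 of 20 class I genes, 0 of 8 class II genes and 2 of 8 peptide supply genes, against 3.44% of all 32851 windows. The STAT site was found in 2 of 20, 1 of 8 and 1 of 8 in the same order, against 8.3% of windows. The kB site was found in 5 of 20, 2 of 8 and 0 of 8, against 4.79%, and CCAAT in 17 of 20, 8 of 8 and 3 of 8, against 37.4%. A match describes the letters only. The windows of Tap1 and Psmb9, which face away from each other, shared 275 bases. The windows of Tap1 (chr17:34187306-34187605, plus strand), Psmb8 (chr17:34197945-34198244, plus strand), B2m (chr2:122147437-122147736, plus strand) and H2-K1 (chr17:34000298-34000597, minus strand) are shown with every match in capitals: CCAAT in Tap1, the STAT site in Psmb8, the response element core, then the kB site, then CCAAT read on the other strand in B2m, and the kB site followed by CCAAT on each strand in H2-K1.
Tap1: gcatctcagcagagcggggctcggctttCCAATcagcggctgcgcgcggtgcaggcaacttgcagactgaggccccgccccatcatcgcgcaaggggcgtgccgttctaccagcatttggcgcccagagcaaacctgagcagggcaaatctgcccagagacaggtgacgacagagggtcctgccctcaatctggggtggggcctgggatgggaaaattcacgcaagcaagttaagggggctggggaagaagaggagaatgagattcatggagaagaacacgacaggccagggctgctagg
Psmb8: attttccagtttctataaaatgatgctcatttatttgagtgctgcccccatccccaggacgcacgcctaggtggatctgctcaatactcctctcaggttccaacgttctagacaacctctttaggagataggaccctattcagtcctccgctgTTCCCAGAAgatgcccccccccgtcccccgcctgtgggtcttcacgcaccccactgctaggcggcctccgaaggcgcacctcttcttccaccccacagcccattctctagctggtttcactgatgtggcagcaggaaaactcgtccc
B2m: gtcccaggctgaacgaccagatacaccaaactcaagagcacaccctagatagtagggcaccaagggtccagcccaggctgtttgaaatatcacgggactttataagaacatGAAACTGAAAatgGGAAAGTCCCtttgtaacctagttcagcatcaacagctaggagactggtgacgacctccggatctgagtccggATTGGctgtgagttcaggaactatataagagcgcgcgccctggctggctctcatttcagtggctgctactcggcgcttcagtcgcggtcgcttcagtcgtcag
H2-K1: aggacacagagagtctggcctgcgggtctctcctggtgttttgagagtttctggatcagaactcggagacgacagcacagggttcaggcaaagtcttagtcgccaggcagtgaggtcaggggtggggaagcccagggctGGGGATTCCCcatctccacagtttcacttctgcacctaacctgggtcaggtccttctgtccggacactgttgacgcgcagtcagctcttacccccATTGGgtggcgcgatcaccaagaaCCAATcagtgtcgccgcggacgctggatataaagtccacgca

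Class I chains had small median differences between the ages, less than the spread of the young samples in most genes. Of the 29 names, 19 were tested and 16 of those were well above background on all 7 arrays. The mean was higher in geriatric cells in 14 and lower in 5, with a median difference of 0.16. The 1 class I gene without overlap was H2-M10.4. Of all features, 49.7% had a higher geriatric mean and 7.18% lay higher without overlap. The median of the list was 0.20 within row 1 and -0.05 without young replicate 3, so its sign rested on that sample.

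The classical chains H2-K1 and H2-D1 differed by less than the spread of the young arrays. H2-K1 read 4.56, 4.60, 4.58 and 4.53 on geriatric arrays 1 to 4, against 4.62, 4.96 and 4.19 on young arrays 1 to 3, a difference of -0.03 (SE 0.23, limma adjusted p = 0.988). The young arrays spread to both sides of 4 nearly equal geriatric arrays. Its second probe, which shares no run of 20 bases with another member's probe, read 3.60, 3.61, 3.88 and 2.98 on the geriatric arrays, against 3.01, 4.09 and 2.90 on the young arrays. H2-D1 read 5.19, 5.39, 5.35 and 5.42 on the geriatric arrays, against 5.19, 5.52 and 4.74 on the young arrays, with young array 2 highest and young array 3 lowest. Its difference was 0.20 (SE 0.23, limma adjusted p = 0.908). B2m, the light chain shared by all class I molecules, read 3.14, 3.15, 3.67 and 2.77 on the geriatric arrays, against 2.13, 3.28 and 2.30 on the young arrays. Young array 2 lay above 3 of the 4 geriatric arrays, and the difference was 0.62 (SE 0.39, 1.54-fold, limma adjusted p = 0.804). H2-K2, annotated by RefSeq as a non-coding relative of H2-K1, averaged 5.20 ± 0.03 in geriatric cells and 5.05 ± 0.37 in young cells (SD, n = 3 each). H2-Bl, named by the array design alone, averaged 2.66 ± 0.21 in geriatric cells and 2.58 ± 0.30 in young cells (SD, n = 3 each).

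The Q region encodes Qa antigens and their relatives, and all 6 of its tested genes had overlapping groups. H2-Q10, known as a secreted class I chain made in liver, read 2.72, 2.79, 2.98 and 2.67 on the geriatric arrays, against 2.32, 2.84 and 1.90 on the young arrays, a difference of 0.45 (SE 0.28, limma adjusted p = 0.799). Its dimmer probe, which shares a run of bases with the H2-T3 probe, lay far lower. It read -5.21, -5.69, -3.98 and -4.01 on the geriatric arrays, against -4.98, -4.75 and -5.04 on the young arrays. That probe was well above background on 3 geriatric and 3 young arrays and differed by 0.44 (SE 0.44). Which of the 2 probes reads H2-Q10 was not tested. H2-Q8 read 0.62, 0.62, 2.20 and 0.57 on the geriatric arrays, against -0.08, 1.50 and -1.73 on the young arrays, with geriatric array 3 and young array 2 set above the rest. Its difference of 1.24 had an SE of 0.90. H2-Q5 averaged 4.94 ± 0.06 in geriatric cells and 4.69 ± 0.38 in young cells, and H2-Q6 averaged 2.65 ± 0.11 in geriatric cells and 2.43 ± 0.54 in young cells (SD, n = 3 each). H2-Q7, which encodes Qa-2, averaged 5.50 ± 0.03 in geriatric cells and 5.36 ± 0.36 in young cells (SD, n = 3 each). H2-Q2 averaged 4.13 ± 0.12 in geriatric cells and 4.17 ± 0.34 in young cells by its brighter probe (SD, n = 3 each), and its other probe differed by 0.44 in the opposite direction.

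In the T region H2-T23, whose Qa-1 chain presents leader peptides of other class I chains, averaged 4.35 ± 0.04 in geriatric cells and 4.37 ± 0.33 in young cells (SD, n = 3 each). H2-T10 is known as a ligand of γδ T cells. H2-T9 averaged 1.03 ± 0.15 in geriatric cells and 0.87 ± 0.45 in young cells, and H2-T10 averaged 0.85 ± 0.12 in geriatric cells and 0.55 ± 0.41 in young cells (SD, n = 3 each). H2-T24 was an exception to the wide young spread, at 1.45 ± 0.09 in geriatric cells and 1.30 ± 0.10 in young cells (SD, n = 3 each), and its dimmer probe differed by 0.54. H2-T3, the thymus leukaemia antigen, was well above background on 2 geriatric and 2 young arrays and averaged -5.38 ± 0.13 in geriatric cells and -4.94 ± 1.22 in young cells (SD, n = 3 each).

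In the M region H2-M3, which presents formylated peptides, averaged -2.36 ± 0.35 in geriatric cells and -2.84 ± 0.45 in young cells (SD, n = 3 each), a difference of 0.47. H2-M10.4, of a family known from vomeronasal neurons, read -5.53, -3.60, -4.77 and -4.00 on geriatric arrays 1 to 4, against -6.19, -6.21 and -5.92 on young arrays 1 to 3. It stood well above background on each of the 4 geriatric arrays but on 0 young ones, so the young level is a bound. On this scale the geriatric mean was at least 2.61-fold higher (limma adjusted p = 0.208). For this fold the dim group's value on each array was the higher of the probe's own level and the lowest level among probes well above background. The log2 difference depended on the processing. It was 1.67 here, 0.60 with normexp and quantile normalization and 0.59 with the authors' values. Arrays 1 and 2, which carry 1 sample name, lay further apart on this probe than their typical 0.0868. H2-M10.2 read -4.26, -3.90, -7.13 and -7.54 on the geriatric arrays, against -5.04, -5.14 and -4.29 on the young arrays. It was well above background on geriatric arrays 1 and 2 and all young arrays, and its difference of -1.42 (SE 0.94, limma adjusted p = 0.813) was 0.57 within row 1.

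The spread of the class I genes was wider among the young samples than among the geriatric ones. The median SD over the 19 genes was 0.118 log2 units in geriatric cells and 0.389 in young cells, while over all tested features it was 0.323 in geriatric cells and 0.304 in young cells. In 13 of the 19 genes (68.4%) the young arrays stood in the same order, array 2 highest and array 3 lowest, an order held by 19.1% of all features and by 4 of the 11 peptide supply genes. The median deviation of the class I genes from their own means was 0.11, 0.10 and 0.04 in the 3 geriatric samples, against -0.08, 0.27 and -0.47 in young samples 1 to 3. Young samples 2 and 3 thus lay on opposite sides of all geriatric samples. The probes standing for H2-K1 and H2-T23 share the run of bases shown above, and the genes of a sample share its array, so the 19 genes are not independent replicates of that order.

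**Figure D2:**
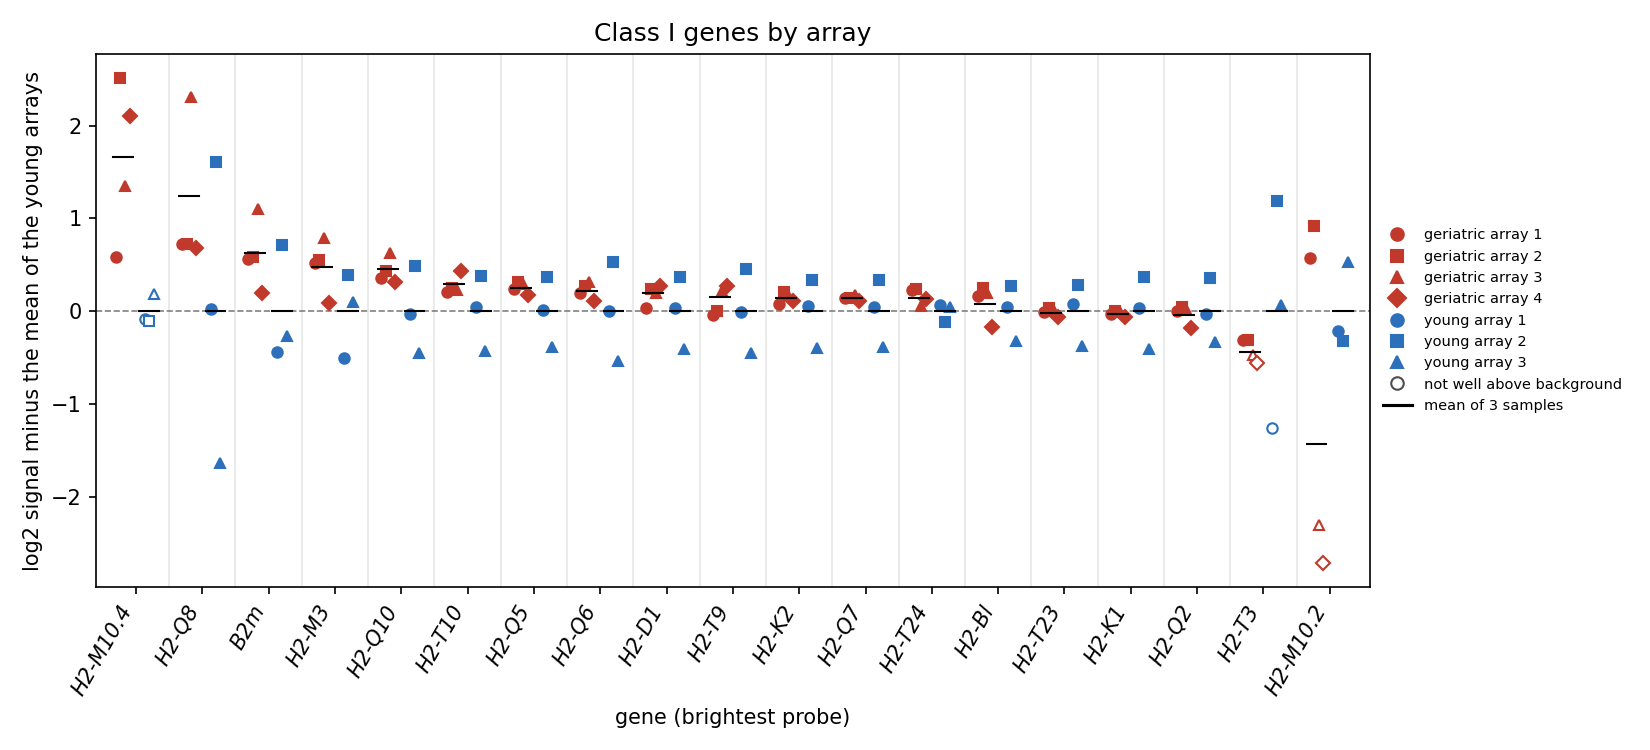
Log2 signal of the 19 tested class I genes on each array, minus the mean of that gene's young arrays (dashed line), with geriatric arrays left and young arrays right of each gene, open symbols for arrays where the probe was not well above background and bars at the means of 3 samples. In most genes the geriatric points lie close together between young array 2 above and young array 3 below, and H2-M10.4 and H2-M10.2 stand at the ends with mean differences of 1.67 and -1.42.

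The remaining 10 class I names were not tested. H2-M9, H2-M10.1, H2-M10.3, H2-M10.6 and H2-M11 were well above background on 0 arrays. H2-M2, H2-M5 and H2-Q1 reached it on 1 array each, H2-M1 on 1 geriatric and 1 young array, and each of the 2 H2-T18 probes on 1 geriatric array.

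Class II genes were often dim, and their geriatric arrays split by gene. Of the 12 names, 8 were tested, and only Cd74, Ciita and H2-DMa were well above background on all 7 arrays. The mean was higher in geriatric cells in 6 of the 8 and lower in 2, with a median difference of 1.27. Cd74 and H2-Eb1 were without overlap. Of all features, 49.7% had a higher geriatric mean and 7.18% lay higher without overlap. Within row 1 the median was -0.25, and it was 0.54 without young replicate 2. The median differences of single geriatric arrays from the young means were -0.25 and -0.26 for arrays 1 and 2, 1.74 for array 3 and 1.01 for array 4. The class II median was thus above the young mean on geriatric arrays 3 and 4 alone, although Cd74 and H2-Eb1 were higher on all 4.

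Cd74, the invariant chain that guides class II molecules to endosomes, read -2.00, -1.89, -1.97 and -3.53 on geriatric arrays 1 to 4, against -4.06, -3.92 and -4.18 on young arrays 1 to 3. All geriatric arrays lay above the young ones, array 4 by the least. The mean level was -2.48 ± 0.91 in geriatric cells and -4.05 ± 0.13 in young cells (SD, n = 3 each), a difference of 1.57 (SE 0.46, 2.97-fold, limma adjusted p = 0.523), and the difference was 2.05 within row 1. H2-Eb1, the β chain of the E molecule, read -3.79, -3.81, -3.95 and -4.83 on the geriatric arrays, against -4.92, -7.94 and -4.98 on the young arrays. It was well above background on 4 geriatric and 2 young arrays, and its difference of 1.75 (SE 0.88, limma adjusted p = 0.751) rested in part on young array 2, without which it was 0.75. C57BL/6 mice make no E α chain, and the probe of its pseudogene H2-Ea-ps was well above background on 0 arrays.

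The chains of the A molecule behaved otherwise. H2-Ab1, its β chain, read -6.22, -5.95, -2.64 and -3.25 on geriatric arrays 1 to 4, against -6.04, -5.95 and -5.21 on young arrays 1 to 3. Arrays 3 and 4 stood far above all the others, and a second H2-Ab1 probe, well above background on those 2 arrays alone, read -7.82, -7.51, -3.27 and -3.53 on the geriatric arrays, against -7.66, -7.44 and -6.41 on the young arrays. The difference by the brighter probe was 1.74 (SE 0.91, limma adjusted p = 0.759) and -0.48 within row 1. H2-Aa, the α chain, read -8.08, -7.48, -2.97 and -4.93 on the geriatric arrays, against -7.55, -4.73 and -8.13 on the young arrays. It was well above background on geriatric arrays 3 and 4 and young array 2, with a difference of 1.57 (SE 1.45) and of -1.28 within row 1. The high arrays of H2-Ab1 and H2-Aa thus matched those of Cd74 only in part. Geriatric array 3 was high for each of these genes, while geriatric arrays 1 and 2 were high for Cd74 but not for the A chains. On geriatric array 4 Cd74, at -3.53, was lower than on arrays 1 to 3 but above all young arrays.

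H2-DM, built from H2-DMa and H2-DMb1, exchanges peptides on class II molecules, and H2-O restrains it. H2-DMa read -3.24, -3.41, -2.16 and -0.89 on the geriatric arrays, against -2.94, -4.40 and -1.96 on the young arrays, with array 4 highest and a difference of 0.97 (SE 0.84). H2-DMb1 read -8.05, -6.17, -4.09 and -4.66 on the geriatric arrays, against -4.60, -6.90 and -5.23 on the young arrays, and its difference of 0.29 (SE 0.96) was -2.47 within row 1. Both DM chains were higher on geriatric arrays 3 and 4 than on arrays 1 and 2. H2-Ob, the β chain of H2-O, averaged -5.18 ± 0.22 in geriatric cells and -4.84 ± 0.60 in young cells (SD, n = 3 each) and was well above background on 1 geriatric and 3 young arrays. Ciita, the master regulator of class II transcription, read 2.95, 2.73, 2.48 and 2.69 on the geriatric arrays, against 2.66, 2.67 and 2.80 on the young arrays, a difference of -0.04 (SE 0.17). Its probe is the one with the AAAAC repeat shown above, and it shared a run of at least 20 bases with 3 probes of other names. Whether the signal of this probe comes from Ciita alone was not tested. H2-DMb2, H2-Eb2, H2-Oa and H2-Ea-ps were not tested, each well above background on 0 arrays.

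**Figure D3:**
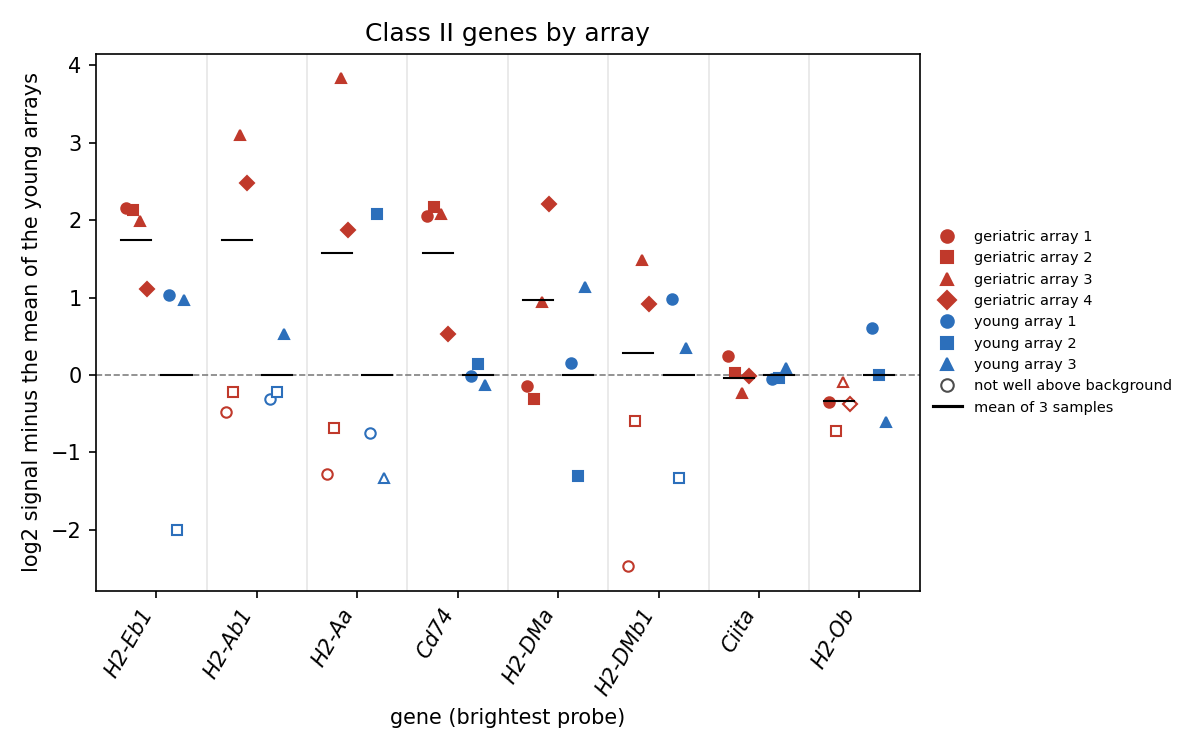
Log2 signal of the 8 tested class II genes on each array, minus the mean of that gene's young arrays (dashed line), with geriatric arrays left and young arrays right of each gene, open symbols for arrays where the probe was not well above background and bars at the means of 3 samples. Cd74 and H2-Eb1 are high on geriatric arrays 1 to 3, H2-Ab1 and H2-Aa on arrays 3 and 4, and Ciita lies near 0 in both groups.

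Markers of cells that carry class II were read on the same arrays. In bulk samples fewer cells of a type and less RNA per cell cannot be told apart. Of the 5 leukocyte markers 1 was tested (Ptprc, which encodes CD45, 0.38 higher in the geriatric mean, SE 0.34), and Cd52 and Cd53 were well above background on 0 arrays. The summed signal of the 5 markers was 0.20 to 0.26 times the 75th percentile on geriatric arrays and 0.12 to 0.33 on young arrays. Of the 12 macrophage markers 5 were well above background on all arrays, while C1qa, C1qc, Lyz2 and Mrc1 were so on 0 arrays, and their sum was 88.5 to 115.0 on geriatric arrays and 92.0 to 101.8 on young arrays. The Itgam probe alone made up 94.6% to 95.4% of that sum. Itgam encodes the CD11b that cells were sorted against, and whether this bright probe reads Itgam was not tested. Without it the sum was 4.71 to 5.27 on geriatric arrays and 4.75 to 5.25 on young arrays. Cd68 read -6.68, -7.55, -2.18 and -1.87 on the geriatric arrays, against -3.29, -3.48 and -2.81 on the young arrays, so geriatric arrays 3 and 4 were the highest, as for H2-Ab1. Among the 7 tested macrophage markers this held for Cd68 and Cd14 alone. Fcgr1 went the other way, at -1.20, -1.08, -1.89 and -1.42 on the geriatric arrays, against -1.23, -1.55 and -1.22 on the young arrays. Of the 8 dendritic cell markers 2 were tested, Itgax, Xcr1 and Ccr7 were well above background on 0 arrays, and their sum was 0.36 to 0.64 on geriatric arrays and 0.35 to 0.44 on young arrays. Of the 6 B cell markers 4 were tested and Ms4a1 was well above background on 0 arrays, while Cd79a differed by 1.27 (SE 0.23, limma adjusted p = 0.275) without overlap. The B cell sum was 12.5 to 14.6 on geriatric arrays and 11.6 to 12.3 on young arrays, and Cd22 made up 95.5% to 98.2% of it. Without Cd22 the sum was 0.41 to 0.58 on geriatric arrays and 0.22 to 0.30 on young arrays.

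Of the 11 fibro-adipogenic progenitor markers 10 were tested, 8 with a higher geriatric mean, and their median difference was 0.92. In 3 (Col1a2, Dpt and Mfap5) the geriatric samples lay above the young ones without overlap. Over all features the shares were 49.7% and 7.18%. The summed signal of the markers was 45.5 to 57.6 times the 75th percentile on geriatric arrays and 34.5 to 45.5 on young arrays. Col3a1 made up 44.6% to 80.7% of that sum. Without it the sum was 13.5 to 30.2 on geriatric arrays and 6.67 to 10.1 on young arrays. Pdgfra, which defines these cells, was well above background on 0 arrays. Ly6a, which encodes the Sca1 used to remove cells, read -6.52, -6.52, -3.16 and -2.47 on geriatric arrays 1 to 4, against -5.09, -6.65 and -4.06 on young arrays 1 to 3. Lum, a matrix protein of fibroblasts, read -5.98, -6.28, -2.72 and -1.86 on the geriatric arrays, against -4.93, -3.40 and -4.57 on the young arrays. Geriatric arrays 3 and 4 were the highest of all 7 for both genes, as for H2-Ab1, and for 5 of the 10 tested markers in all (Ly6a, Lum, Dcn, Dpt and Cd248). In 2 others, Col1a1 and Col3a1, both arrays lay below geriatric arrays 1 and 2. Col1a1 read -0.61, -0.74, -1.49 and -2.08 on the geriatric arrays, against -1.92, -1.50 and -0.79 on the young arrays. Col3a1, the brightest marker of the list, read 5.18, 5.10, 4.78 and 4.34 on the geriatric arrays, against 4.71, 5.15 and 4.80 on the young arrays. Of the 8 endothelial cell markers 6 were tested, 3 with a higher and 3 with a lower geriatric mean, with a median difference of -0.02. Cdh5, not tested, read -8.16, -7.51, -4.56 and -4.27 on the geriatric arrays, against -7.94, -7.04 and -8.14 on the young arrays. Pecam1 and Esam did not follow, at -6.44 and -5.75 on geriatric array 3, below all young arrays. The part of the markers of any cell type in the class II values was not tested.

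H2-Gs10, whose probe RefSeq assigns to H2-Q4, averaged 6.03 ± 0.06 in geriatric cells and 5.98 ± 0.07 in young cells (SD, n = 3 each), and whether this bright, flat probe reads the named gene was not tested. The segment genes had slightly lower geriatric means. H2-Ke2, the prefoldin subunit Pfdn6, averaged 1.96 ± 0.19 in geriatric cells and 2.28 ± 0.20 in young cells (SD, n = 3 each), a difference of -0.32 (SE 0.19). H2-Ke6, an enzyme of steroid and fatty acid metabolism, averaged 3.98 ± 0.04 in geriatric cells and 4.11 ± 0.13 in young cells (SD, n = 3 each), a difference of -0.13 (SE 0.15). Neither passed the threshold.

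The genes that surround the members in the pathway were read by lists, and none of their genes passed the threshold. Beside their counts, 49.7% of all features had a higher geriatric mean, and 5.65% lay lower without overlap. The constitutive proteasome, whose subunits Psmb8, Psmb9 and Psmb10 replace in part, had 10 genes tested of 11, 3 with a higher and 7 with a lower geriatric mean, and a median of -0.08, against 0.40 for peptide supply. Psmb7, the subunit that Psmb10 replaces, differed by -0.29 (SE 0.24), and Psme3, another activator of the proteasome, by -0.17 (SE 0.15) with the geriatric samples below the young ones. The 8 chaperones of class I assembly had 1 higher and 7 lower means and a median of -0.07, with Pdia3 at -0.34 (SE 0.19) and Uggt1 at -0.25 (SE 0.22). The 8 cytosolic peptidases had 3 higher and 5 lower means and a median of -0.08, with Blmh at -0.71 (SE 0.35) and Lap3 at -0.51 (SE 0.26).

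Interferon-stimulated genes outside the MHC had 18 tested of 20, 16 with a higher geriatric mean, 6 without overlap and a median difference of 0.64. Over all features 49.7% had a higher geriatric mean, 7.18% lay higher without overlap, and the median was -0.0024. Irgm1, an interferon-induced GTPase, read 1.06, 1.09, 1.52 and 0.37 on geriatric arrays 1 to 4, against -0.77, -0.08 and -0.27 on young arrays 1 to 3, a difference of 1.36 (SE 0.35, limma adjusted p = 0.461). Ifit1, which binds foreign RNA, read -0.42, -0.43, -0.31 and -0.50 on the geriatric arrays, against -1.19, -1.16 and -2.40 on the young arrays, a difference of 1.17 (SE 0.37, limma adjusted p = 0.559). Both were above every young array on all geriatric arrays. Interferon receptors, kinases and transcription factors had 18 tested of 19, 10 higher and 8 lower, and a median of 0.09. Irf1, the factor that binds the class I response element, read 3.75, 3.88, 3.56 and 3.68 on the geriatric arrays, against 2.65, 3.26 and 2.01 on the young arrays, a difference of 1.05 (SE 0.34, limma adjusted p = 0.575). Socs1, the feedback inhibitor of interferon receptors, read -1.20, -1.33, -1.16 and -2.23 on the geriatric arrays, against -2.45, -2.48 and -2.92 on the young arrays, a difference of 1.06 (SE 0.34, limma adjusted p = 0.567). Young array 3 was the lowest of the young arrays for Irf1, Socs1, Ifit1 and Psmb8, as for most class I genes. This order was not general, since Irgm1 and Tap2 were lowest on young array 1.

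**Figure D4:**
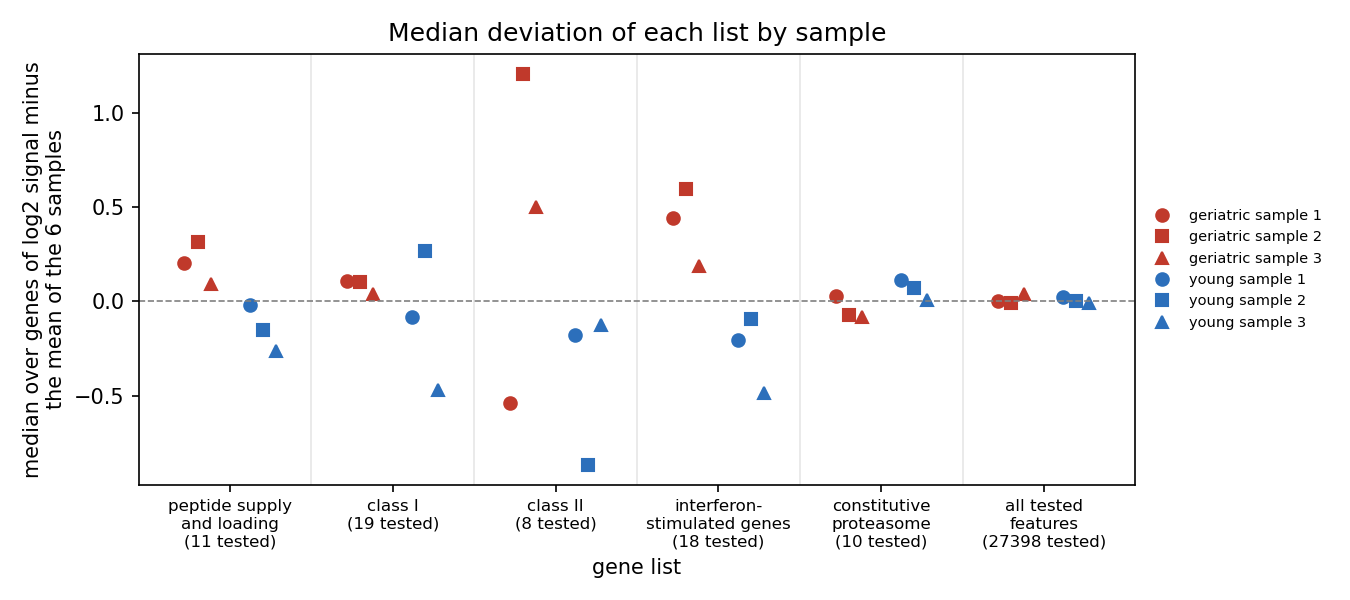
For 6 lists, the median over its tested genes of each sample's log2 signal minus that gene's mean over the 6 samples, with geriatric samples left and young samples right (geriatric sample 1 is the mean of arrays 1 and 2, samples 2 and 3 are arrays 3 and 4). The peptide supply medians are 0.20, 0.31 and 0.09 in geriatric samples and -0.02, -0.15 and -0.26 in young samples, the class II medians of geriatric samples spread from -0.54 to 1.21, and the constitutive proteasome stays within 0.11 of 0.

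Regulators and partners of class II had no common direction. The class II transcription complex and its associated factors had 9 tested of 10, 4 higher and 5 lower, and a median of -0.01. Rfxank, a subunit of the RFX complex on class II promoters, read 0.55, 0.40, 0.65 and 0.74 on the geriatric arrays, against -0.02, 0.27 and 0.13 on the young arrays, a difference of 0.50 (SE 0.17, limma adjusted p = 0.601). Irf4, a factor of lymphocytes, was well above background on 0 geriatric and 3 young arrays, so the geriatric level is a bound. On this scale the young mean was at least 2.27-fold higher than the geriatric one (limma adjusted p = 0.329). Endosomal proteases and class II traffic had 7 tested of 8, 3 higher and 4 lower, and a median of -0.06. Lgmn, the endosomal protease legumain, read -0.49, -0.60, -0.58 and -0.25 on the geriatric arrays, against 0.06, 0.76 and 0.70 on the young arrays, a difference of -0.97 (SE 0.25, limma adjusted p = 0.454). Ctsb, the protease cathepsin B, differed by 0.19 (SE 0.16). Ctss, the cathepsin that trims the invariant chain in antigen-presenting cells, was well above background on 0 arrays.

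Co-stimulatory and co-inhibitory ligands, which tell T cells how to answer an MHC complex, had 6 tested of 12. All 6 had a higher geriatric mean, with a median of 1.15, and 3 had no overlap, against 49.7% and 7.18% of all features. Cd274 passed the filter on dim probes through geriatric arrays alone, and without it the counts were 5 of 5 and 2, with a median of 0.69. Cd274, the inhibitory ligand PD-L1, read -2.98, -2.96, -2.35 and -5.54 on geriatric arrays 1 to 4, against -5.64, -6.68 and -7.28 on young arrays 1 to 3. It was well above background on geriatric arrays 1 to 3 and on 0 young arrays, and on this scale the geriatric mean was at least 4.62-fold higher (limma adjusted p = 0.558). Lgals9, the ligand galectin-9, read 1.78, 1.77, 1.42 and 1.33 on the geriatric arrays, against 0.77, 1.10 and 0.57 on the young arrays, a difference of 0.69 (SE 0.22, limma adjusted p = 0.560). Cd86 and Cd40, ligands of professional antigen-presenting cells, were well above background on 0 arrays. Class I-like genes outside the MHC had 6 tested of 15, 2 higher and 4 lower, and a median of -0.21. Hfe, which binds the transferrin receptor, differed by 0.75 (SE 0.30, limma adjusted p = 0.687), and H60c, a ligand of the activating receptor NKG2D, differed by -0.70 (SE 0.25, limma adjusted p = 0.618), both without overlap.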

How the data were processed

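Per the file headers, the deposited spot intensity values come from version 10.7.3.1 of Agilent Feature Extraction; the processed signal had background subtracted. Deposited flags gave spots well above background or outlying. The authors' deposited table holds log2 values, made by software the sources used here do not name, and served as an alternative; its column medians were 8.02, its scale was log2 by a match to the scanner signals (r of 0.9996 to 0.9998), and its background correction stays unknown.

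Main values were log2 processed signal minus the 75th percentile of the array. Control spots and 124 to 229 outlier spots per array were left out, and spots of a probe were averaged. The 41261 probes well above background on at least 3 arrays were kept, and the brightest per name gave 27398 features. Differences were tested with limma 3.58.1 in R 4.3.3 (2-sided, Benjamini-Hochberg over all features, threshold 0.05), which was tested on simulated data. The number of arrays limits the precision. No spot was saturated. Of the 70 member probes, 49 were tested and 60 had an accession in the RefSeq table. Probe coordinates were taken from the array files (mm9). Samples with the same number did not deviate together (r of -0.043, 0.030 and 0.045), so numbers were not used as pairs. The labels do not tie samples to separate mice, so a p-value reflects spread that may be in part technical.

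All members were accounted for by class, with values of tested members, and of other pathway genes the 2 with the smallest p per list were named; Ctss, Cd86, Cd40, Cd79a, Cd22 and the other markers with array values were chosen after their values were seen. The members and lists were chosen with earlier results of these data known. Alternatives were other scalings, filters, probe rules, left-out samples and blocks. Figures were drawn with matplotlib 3.10.9.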

Additional observations from a re-analysis of the deposited data

How the results depend on the processing

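With 3 samples per group, dim class II probes and slide rows partly confounded with age, no member passed in any of the 19 alternatives, where the lowest adjusted p of a member was 0.115; 2 to 8 of the tested members had an unadjusted p under 0.05. Of 41 tested members, 33 had a value in all 19 alternatives and 8, H2-Eb1 and H2-M10.4 among them, in 18, as they were left out when well above background on all arrays was required; 21 of the 41 kept their sign in every alternative that gave them a value, among them Psmb8 (0.83 to 1.50), Tap1 (0.62 to 1.51), Tap2 (0.42 to 0.79), Nlrc5 (0.37 to 1.27), Psmb10 (0.29 to 0.48), B2m (0.39 to 0.98), Cd74 (1.10 to 2.09) and H2-Eb1 (0.52 to 2.26). Features passing over the whole array numbered 4 with normexp and quantile normalization, 4 with the authors' values, 2 when well above background on all arrays was required, 64 with geriatric arrays 1 and 2 as separate samples, 0 with a replicate block (a block on the shared numbers, which moved no member's call), 0 with a slide row block and 3 within slide row 1, against 7; leaving out 1 array gave 0 to 8, and leaving out geriatric arrays 1 and 2 together gave 1.

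The class II median was 0.50 with normexp and quantile normalization, 0.50 with the authors' values and -0.25 with the slide row as a block or within row 1, and 0.54 to 1.27 with 1 array left out; the peptide supply median was 0.21 to 0.45 and the class I median -0.05 to 0.38 in the same runs. Signs turned as follows. With normexp and quantile normalization H2-Q2 was 0.045, H2-T23 0.033, Ciita 0.063 and Psme1 0.023, and with the authors' values H2-Q2 was 0.045, H2-T23 0.033, Ciita 0.063 and Psme1 0.023. With quantile normalization H2-K1 was 0.0043, H2-T23 0.019, Ciita 0.00088 and Psme1 0.023. With median scaling H2-Bl was -0.010, H2-Gs10 -0.048 and Psme2 -0.0093. With probes averaged H2-Q2 was 0.20 and H2-K1 0.064. With geriatric arrays 1 and 2 as separate samples H2-DMb1 was -0.17, Ciita 0.0057 and Tapbpl -0.089. With the slide row as a block or within row 1, H2-M10.2 was 0.57, H2-T9 -0.042, H2-Q2 0.0029, H2-Ab1 -0.48, H2-DMa -0.14, H2-Aa -1.28, H2-DMb1 -2.47, Ciita 0.24, H2-Gs10 -0.020 and Tapbpl -0.99. Without geriatric arrays 1 and 2 together Psme1 was 0.046. With 1 array left out the ranges that crossed 0 were Ciita -0.074 to 0.058, H2-Bl -0.079 to 0.22, H2-D1 -0.0013 to 0.39, H2-DMb1 -0.37 to 0.78, H2-K1 -0.23 to 0.16, H2-K2 -0.054 to 0.31, H2-Q2 -0.20 to 0.14, H2-Q6 -0.047 to 0.49, H2-Q7 -0.047 to 0.31, H2-T23 -0.20 to 0.13, H2-T3 -1.07 to 0.15, H2-T9 -0.071 to 0.38, Psme1 -0.16 to 0.065, Psme2 -0.052 to 0.26 and Tapbpl -0.33 to 0.32. The causes of these turns were not tested.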

Other observations

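The 2 probes of H2-T18 were each bright on a different one of the 2 geriatric arrays that carry 1 sample name. The first read -2.20 on geriatric array 1 and -7.05 on array 2, and the second read -8.01 on array 1 and -2.53 on array 2, while on the other geriatric and the young arrays both were between -8.07 and -6.11. These values belong in no comparison, since neither probe was well above background on more than 1 array. Clec9a, a dendritic cell marker, and Mx1, an interferon-stimulated gene, lay highest on these same arrays: Clec9a read -5.06, -5.30, -7.20 and -7.25 on the geriatric arrays, against -8.06, -8.06 and -8.26 on the young arrays, and Mx1 read -5.17, -4.93, -7.24 and -7.57 on the geriatric arrays, against -8.08, -8.07 and -8.26 on the young arrays. Both were chosen after their values were seen, and neither was tested. Clec9a was well above background on 1 geriatric array and Mx1 on 2, and both on 0 young arrays. On geriatric array 2 Clec9a lay beside the lowest level of a probe well above background, -5.35. Of the 2 tested dendritic cell markers, Flt3 was also highest on these arrays (-2.59 and -2.63) and Zbtb46 lowest (-2.97 and -3.13). Batf3 and Cd209a were each well above background on 1 young array and 0 geriatric arrays.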
